A study of Mus musculus with 3 samples.

Results

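The 9 genes described here are junction and transporter genes of the kind that blood-brain barrier endothelium uses: Cldn5, Ocln and Tjp1 of the tight junction, and Slc2a1, Slc7a5, Slco1c1, Mfsd2a, Abcb1a and Abcg2 of transport. They were taken from a fixed list of symbols, were matched to Ensembl identifiers with the GENCODE M21 annotation of mouse genome GRCm38, and are 9 of the 54532 genes in the files. RNA was sequenced from meningeal cells of mice that had all been inoculated with 4T1-DM cells, a dural metastasis model. 4T1 is a mouse mammary carcinoma line. Groups received PBS, ZOL or ZOL+Ang2, and the labels leave the latter names unexpanded. Cells labelled as lacking CD45 and carrying CD31 and PDPN came from the dorsal dura on day 12. The sources used here give no genotype, strain or age of the mice. Each group was 1 library from a pool of 6 mice, so there were no replicates, no test was run, and every interval below covers counting error only. In such bulk RNA, fewer cells of a type and less RNA per cell cannot be told apart.

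Endothelial cells of the brain restrict passage between blood and tissue by sealing the space between cells with tight junctions, by carrying nutrients through dedicated transporters and by pumping many drugs and lipophilic compounds back into blood. Dural vessels lie outside this barrier and are known to be more permeable, with fenestrated segments, and the barrier of the meninges is formed by arachnoid cells joined by tight junctions. Lymphatic endothelium, the type that the labelled surface markers are used for, also makes claudin-5, in junctions that open to take up fluid and cells. Several of the 9 genes are active in other cells too: Slc2a1 and Slc7a5 in dividing and carcinoma cells, and Ocln and Tjp1 in epithelia.

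The libraries differed in depth and make-up. The deposited values held 1675532, 16586760 and 9204901 recovered reads for PBS, ZOL and ZOL+Ang2. The PBS library stood apart: the satellite-type models Gm10800 and Gm10801 took 18.7% of its reads, against 0.907% and 3.02%, and mitochondrially encoded genes took 12.1%, against 1.52% and 1.19%. The labelled cell type had mixed support. Of 15 pan-endothelial markers, none was at 0 in any library, and their sum was 2720 CPM (reads scaled to a common library size) under PBS, 4195 under ZOL and 1544 under ZOL+Ang2. Pecam1, which encodes CD31, had only 2 reads in PBS, as did Erg and Robo4, and Erg had 8 reads in ZOL+Ang2. The 9 lymphatic markers summed to 298, 188 and 228 CPM. Among them Mmrn1 stood at 155, 11.5 and 12.0 CPM, Reln at 99.6, 8.60 and 7.87, and Flt4 at 0.538, 70.9 and 23.8, whereas Lyve1 had 0 reads in all 3 libraries and Prox1 had 2 reads in PBS and 0 in the other libraries, while Pdpn stood at 18.8, 67.5 and 171 CPM. Cells of other types were represented. Fibroblast markers summed to 350, 976 and 11350 CPM for PBS, ZOL and ZOL+Ang2, erythroid markers to 191, 7.20 and 25180, myeloid markers to 1249, 127 and 2214, and epithelial and carcinoma markers to 692, 5754 and 5649.

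Among the junction genes, Cldn5 dominated. Cldn5 encodes claudin-5, the main sealing claudin of endothelium (ENSMUSG00000041378; chromosome 16, 18776847 to 18778262). Its deposited level was 2076 RPKM (reads per kilobase of gene, relative to a library total) under PBS, 539 under ZOL and 172 under ZOL+Ang2, from 3293, 18068 and 2857 reads. RPKM ranks genes within a library. Its order of libraries need not be that of CPM, because the recovered reads were 1.496, 0.701 and 0.785 times the totals that it implies for PBS, ZOL and ZOL+Ang2, so ratios between libraries are given in CPM. Cldn5 was lowest in ZOL+Ang2, and it was a leading transcript in each library, ranking 13 among protein-coding genes under PBS, 43 under ZOL and 206 under ZOL+Ang2. Tjp1 encodes ZO-1, the scaffold that ties claudins to actin (ENSMUSG00000030516; chromosome 7, 65296165 to 65527781). It was far lower per length, at 23.1 RPKM under PBS, 10.96 under ZOL and 4.13 under ZOL+Ang2. Ocln encodes occludin, a second membrane protein of the tight junction strand (ENSMUSG00000021638; chromosome 13, 100496507 to 100552718). It had 12.9 RPKM from 1289 reads in ZOL and was at 0 reads in PBS and in ZOL+Ang2. By counting error alone, 0 reads allow up to 0.634 RPKM in PBS and 0.0606 RPKM in ZOL+Ang2, so the ZOL level lay above both limits.

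Slc2a1 led the nutrient transporters. It encodes GLUT1, the glucose carrier of barrier endothelium and of many dividing cells (ENSMUSG00000028645; chromosome 4, 119108711 to 119137983). Its level was 435 RPKM under PBS, 184 under ZOL and 59.6 under ZOL+Ang2, with ranks of 73, 179 and 647 among protein-coding genes. Slc7a5 encodes LAT1, the exchanger of large neutral amino acids (ENSMUSG00000040010; chromosome 8, 121881150 to 121907694). It stood at 19.7, 9.74 and 3.54 RPKM in PBS, ZOL and ZOL+Ang2. Both genes were lowest in ZOL+Ang2. Mfsd2a carries lysophospholipids with omega-3 fatty acids and is known for limiting transcytosis in brain endothelium (ENSMUSG00000028655; chromosome 4, 122946850 to 122961188). Its level was 74.2 RPKM under PBS, 12.2 under ZOL and 1.55 under ZOL+Ang2, the last from 41 reads. Slco1c1 encodes OATP1C1, a carrier of thyroxine (ENSMUSG00000030235; chromosome 6, 141524368 to 141570177). It had 2.93 RPKM from 17 reads in PBS, 13.7 RPKM from 1680 reads in ZOL and 0 reads in ZOL+Ang2, where 0 allows up to 0.0493 RPKM. The RPKM of Slco1c1 was highest in ZOL.

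The efflux pumps parted ways. Abcb1a encodes a P-glycoprotein, the main drug efflux pump of brain vessels (ENSMUSG00000040584; chromosome 5, 8660077 to 8748575). It stood at 61.4 RPKM under PBS, 22.7 under ZOL and 3.38 under ZOL+Ang2. Abcg2 encodes BCRP, the breast cancer resistance protein, which shares many substrates with P-glycoprotein (ENSMUSG00000029802; chromosome 6, 58584523 to 58695676). Its level was 57.6 RPKM under PBS, 19.4 under ZOL and 22.4 under ZOL+Ang2. Of the 9 genes, Abcg2 was the single one whose ZOL+Ang2 level did not lie below its ZOL level. Abcb1b, the second mouse P-glycoprotein gene and no member, went the opposite way to Abcb1a, with 0.335 RPKM from 3 reads under PBS, 2.99 under ZOL and 13.3 under ZOL+Ang2. The values of this pair are uncertain in part. Of the 5459 distinct stretches of 50 bases in Abcb1a transcripts, 22.5% also occur in transcripts of other genes, and 889 stretches are shared with Abcb1b, and the sources used here do not say how reads with several positions were counted. In addition, 10.1% of Abcb1a exon bases overlap Gm42686 on the opposite strand, and whether counting used strand is not given. For Cldn5, Ocln, Tjp1, Mfsd2a, Slco1c1 and Slc7a5 no such stretch was shared, and for Slc2a1 and Abcg2 the shares were 1.54% and 0.844%.

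**Figure D1:**
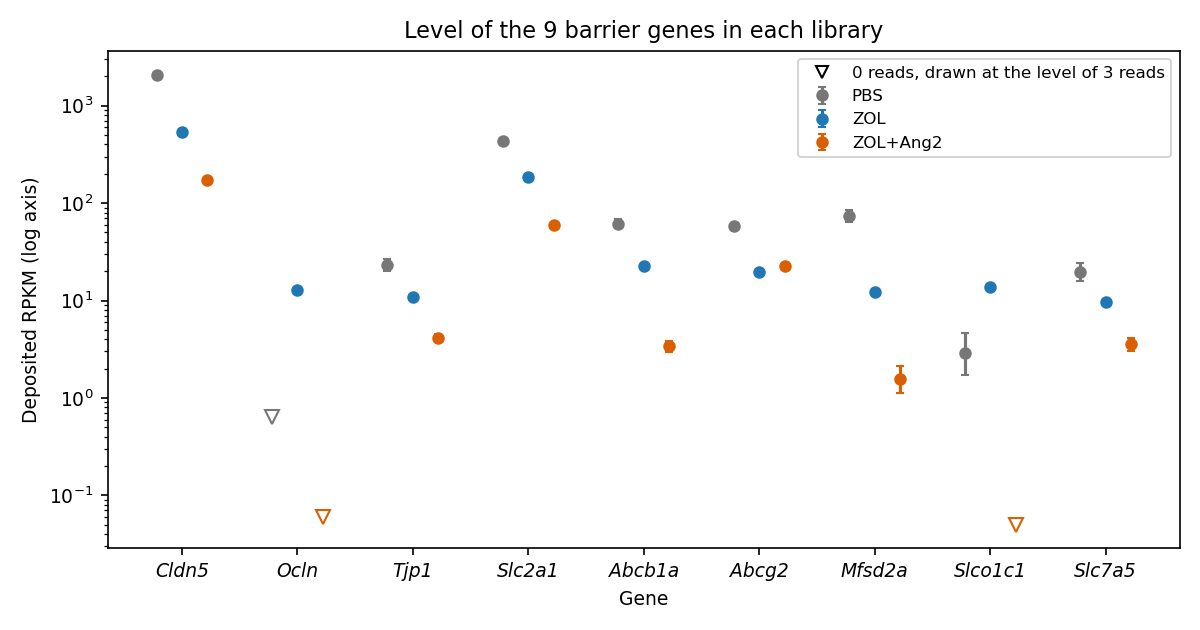
Deposited RPKM (log axis) of the 9 barrier genes in the PBS, ZOL and ZOL+Ang2 libraries, 1 point per library, with 95% counting intervals (exact Poisson) and open triangles for 0 reads, drawn at the level of 3 reads. Cldn5 and Slc2a1 lead in each library, 7 genes are lowest in ZOL+Ang2, Abcg2 stands at 19.4 in ZOL and 22.4 in ZOL+Ang2, and Ocln has reads in ZOL alone.

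Per length, the order of the levels was steady at the top and loose below. Cldn5 came first and Slc2a1 second in each library. In PBS Mfsd2a (95% counting interval 63.9 to 85.6 RPKM), Abcb1a (55.4 to 67.9) and Abcg2 (52.8 to 62.7) followed with neighbouring intervals that overlap, then Tjp1 (20.01 to 26.5) and Slc7a5 (15.7 to 24.5), which also overlap, with Slco1c1 and Ocln last. In ZOL the genes after Abcb1a (21.9 to 23.5) and Abcg2 (18.8 to 20.1) lay between 9.74 RPKM for Slc7a5 and 13.7 for Slco1c1, where each gene's interval overlaps its neighbour's from Slco1c1 through Ocln and Mfsd2a to Tjp1. In ZOL+Ang2 Abcg2 took the third place, ahead of Tjp1, Slc7a5 and Abcb1a, whose intervals overlap in turn (3.72 to 4.56, 3.00 to 4.15 and 2.94 to 3.86).

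The start regions of Cldn5, Slc2a1 and Mfsd2a are shown because the first 2 had the highest levels and the latter was lower in both steps of the comparison, from PBS to ZOL and from ZOL to ZOL+Ang2. They are the 250 bases before the RefSeq start in GRCm38.p6, written from 5′ to 3′ on the strand of the gene. Capitals mark every match, on either strand, to letters that SP1, HIF, TCF/LEF, SOX and FOX factors or the TATA box are known for, spelled out after the sequences, and no match overlaps another here.
Cldn5, chr16:18776597-18776846, plus strand: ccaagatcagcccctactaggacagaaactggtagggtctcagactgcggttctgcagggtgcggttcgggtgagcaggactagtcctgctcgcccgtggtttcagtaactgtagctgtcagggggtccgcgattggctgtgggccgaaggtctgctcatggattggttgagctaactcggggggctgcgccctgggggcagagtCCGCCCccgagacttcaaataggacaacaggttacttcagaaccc
Slc2a1, chr4:119108495-119108744, plus strand: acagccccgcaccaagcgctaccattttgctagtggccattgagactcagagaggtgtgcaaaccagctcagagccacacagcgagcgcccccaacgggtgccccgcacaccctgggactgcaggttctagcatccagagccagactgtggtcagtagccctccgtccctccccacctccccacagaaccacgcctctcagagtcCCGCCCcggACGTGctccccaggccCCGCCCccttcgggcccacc
Mfsd2a, chr4:122961189-122961438, minus strand: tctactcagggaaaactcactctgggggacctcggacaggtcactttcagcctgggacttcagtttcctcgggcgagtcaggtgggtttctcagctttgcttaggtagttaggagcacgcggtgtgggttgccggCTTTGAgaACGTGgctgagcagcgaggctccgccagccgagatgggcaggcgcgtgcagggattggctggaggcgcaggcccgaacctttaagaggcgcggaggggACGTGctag
The Cldn5 window holds an SP1 match beginning 45 bases before the start and no other. The Slc2a1 window holds SP1 matches beginning 45 and 20 bases before the start and a HIF match beginning at 36. The Mfsd2a window holds HIF matches beginning 107 and 9 bases before the start and a TCF/LEF match at 115. RefSeq records were found for 8 of the 9 members, Slc7a5 being the exception, in 11 records. The letters GGGCGG, searched for SP1, were in 7 of these 11 windows, which belong to 5 members, against 32.7% of 32851 RefSeq windows of the same length. TCAAAG, searched for TCF/LEF factors, was in 2 of them and in 13.8% of all. ACGTG, searched for HIF factors, was in 2 of them and in 16.6% of all. ACAATG, searched for SOX factors, was in 1 of them and in 10.7% of all. TAAACA, searched for FOX factors, was in 1 of them and in 12.0% of all. The TATA box letters TATAAA were in 0 of them and in 12.4% of all. Member windows ranged from 40.4% G and C letters (Abcb1a) to 69.2% (Ocln), and the median of all windows was 52.4%. Whether this content accounts for the SP1 count was not tested. The RefSeq starts of Abcb1a and Tjp1 lie 92986 and 156537 bases from the GENCODE gene start, so for these genes the window may not be the start used here. Abcg2 has RefSeq starts 12149 and 56023 bases from its GENCODE start, whose windows hold all its SP1 matches. Its window with a RefSeq start 10 bases away holds no SP1 match. Matches to letters describe the windows and do not show that a factor binds.

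ZOL against PBS asked how the selected cells differed after ZOL. At the scaling used here, most barrier genes lay close together in both libraries: Slc2a1 stood at 919 CPM with PBS against 972 with ZOL (1.06-fold higher, 95% counting interval 1.01 to 1.11), Abcb1a 203 and 187 (1.08-fold lower, 0.970 to 1.21) and Tjp1 109 and 129 (1.19-fold higher, 1.03 to 1.38). Mfsd2a was lower in ZOL, from 101 to 41.5 CPM (2.42-fold, 2.05 to 2.86). Slco1c1 was higher, from 9.15 to 107 CPM (11.7-fold, 7.28 to 20.1), and Ocln was at least 50.9-fold higher against a floor of 3 PBS reads. Cldn5 (1.54-fold lower, 1.48 to 1.60), Abcg2 (1.18-fold lower, 1.08 to 1.30) and Slc7a5 (1.23-fold higher, 0.983 to 1.57) stayed within 2-fold. A difference is counted where log2 of the ratio of CPM plus 5 passes 2-fold. By this count 2 members were higher, 1 was lower and 6 lay within 2-fold. Of all 10942 genes compared (those that average 10 CPM or more) 78.7% were past 2-fold, 49.2% higher and 29.4% lower. All 9 members passed the level filter, Ocln and Slco1c1 through their ZOL reads alone, so the higher ZOL values of this pair are built into the filter.

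These ratios depend on how PBS is scaled. The median log2 ratio of all genes compared was 0.94 and that of the members 0.08, so relative to all genes the members' median was -0.86, and 4 members, Cldn5, Abcb1a, Abcg2 and Mfsd2a, then stood past 2-fold lower. Median-of-ratios factors moved the median of all genes by -1.11 and put 3 members past 2-fold lower, and the deposited RPKM compared with no further scaling moved it by -1.77 and put 6 there. Of genes past 2-fold, 62.6% were higher in ZOL at the main scaling, 47.3% with median-of-ratios factors, 39.9% with the deposited RPKM and 51.2% with all libraries thinned to the PBS depth. Mfsd2a stayed past 2-fold lower, and Ocln and Slco1c1 past 2-fold higher, in all 7 scalings tried. Of 2925 genes at 50 to 150 CPM in ZOL, the range that holds Ocln and Slco1c1, 702 (24.0%) had no read in PBS.

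The step from ZOL to ZOL+Ang2 set the combination beside ZOL alone. In it 8 of the 9 barrier genes were lower and Abcg2 was level. Cldn5 stood at 1151 CPM against 326 (3.53-fold lower, 95% counting interval 3.40 to 3.68) and Slc2a1 at 972 against 280 (3.48-fold, 3.33 to 3.63). Tjp1 was 3.00-fold lower (2.68 to 3.35) and Slc7a5 3.10-fold lower (2.61 to 3.71). Abcb1a, at 187 and 24.7 CPM, was 7.58-fold lower (6.60 to 8.74), and Mfsd2a, at 41.5 and 4.68 CPM, 8.88-fold lower (6.48 to 12.5). Ocln and Slco1c1, at 82.1 and 107 CPM under ZOL and with 0 reads under ZOL+Ang2, were at least 240-fold and at least 313-fold lower against a floor of 3 reads. Abcg2 had 239 and 244 CPM (1.02-fold higher, 0.970 to 1.08).

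By the same count 8 of the 9 members were past 2-fold lower and none higher (6 of 7 without Ocln and Slco1c1, which passed the filter through ZOL and so had to be lower), against 24.8% lower and 16.2% higher, 41.0% in either direction, of all genes compared. The members' median log2 ratio was -1.81 and that of all genes -0.02. The count was also 8 with median-of-ratios factors, with the deposited RPKM, with all libraries thinned to the same depth, and with ZOL and ZOL+Ang2 scaled and filtered without the PBS library. Loss of all reads was seen in other genes of this level too: 180 of the 2925 genes at 50 to 150 CPM in ZOL (6.15%) had 0 reads in ZOL+Ang2, Ocln and Slco1c1 among them.

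Endothelial markers were lower in the same comparison. Of 15 pan-endothelial markers 12 were past 2-fold lower and none higher, with a median log2 ratio of -1.56, and their sum was 2.72-fold lower. Erg and Robo4 passed the level filter only through ZOL, which favours the lower direction of both. Single markers ranged widely, from Erg at 40.9-fold lower (8 reads in ZOL+Ang2) and Icam2 at 24.1-fold lower to Mmrn2 at 1.23-fold higher. The CPM ratios of Abcb1a, Mfsd2a and Abcg2 given above lay inside that range, also when it is taken from Icam2 to Mmrn2 without Erg. Vwf made up 25.3% of the marker sum in ZOL and 17.6% in ZOL+Ang2. Set against that sum, Cldn5 (1.30-fold lower), Slc2a1 (1.28-fold lower), Slc7a5 (1.14-fold lower) and Tjp1 (1.10-fold lower) lay within 2-fold. Abcb1a was 2.79-fold lower and Mfsd2a 3.27-fold lower in this measure, Ocln and Slco1c1 were at least 88.3-fold and 115-fold lower, and Abcg2 was 2.78-fold higher. Measured this way 4 members were past 2-fold lower and 1 higher. With the median endothelial ratio as the reference 3 were lower, without Mfsd2a, and 1 higher, and the log2 ratios of Tjp1 (0.08) and Slc7a5 (0.16) changed sign. Fibroblast, erythroid and myeloid markers were higher in ZOL+Ang2, by the sums given above, and their part in the lower share of barrier transcripts was not tested.

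**Figure D2:**
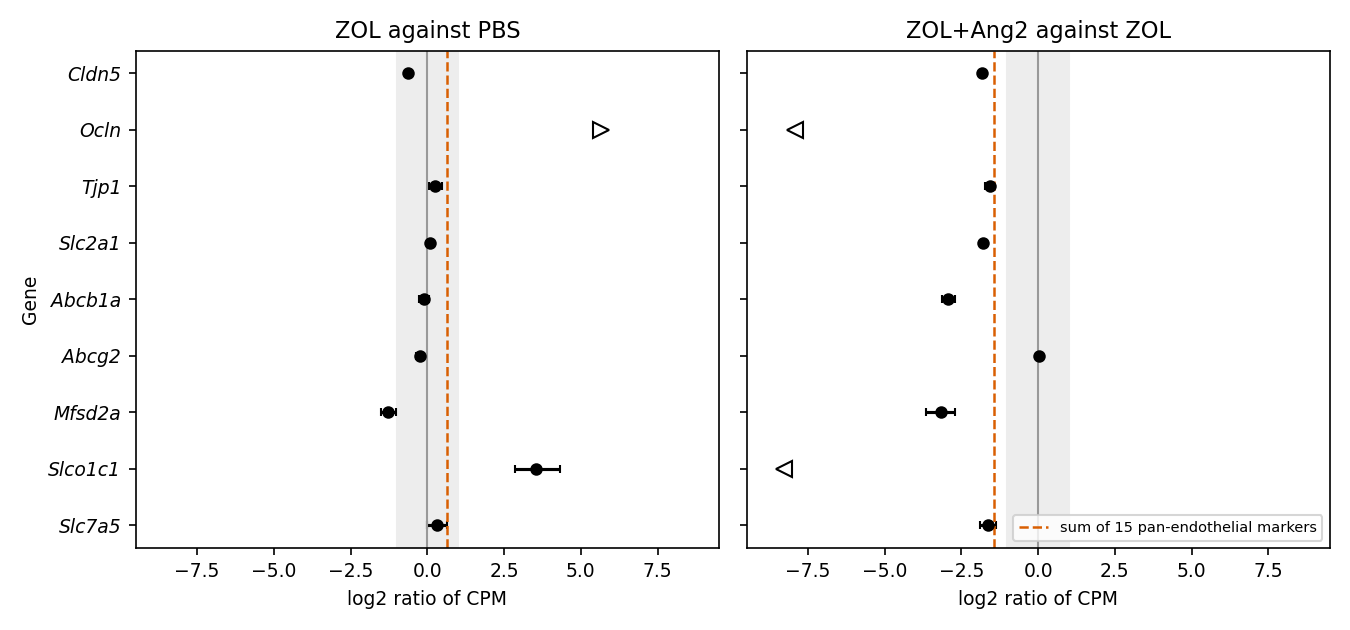
log2 ratio of CPM of the 9 barrier genes for ZOL against PBS (left) and ZOL+Ang2 against ZOL (right), with 95% counting intervals, arrowheads for ratios that are bounds against 3 reads, grey for the range within 2-fold, and a dashed line at the ratio of the summed 15 pan-endothelial markers. On the right, Cldn5, Slc2a1, Tjp1 and Slc7a5 sit close to the dashed line, which stands for 2.72-fold lower, Abcb1a and Mfsd2a sit to its left, and Abcg2 sits near 0.

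ZOL+Ang2 against PBS, which shares 1 library with each of the other comparisons, had 7 members past 2-fold lower and none higher, where 77.3% of all genes compared were past 2-fold, 33.1% lower and 44.2% higher. Mfsd2a was lower by 21.5-fold (95% counting interval 15.3 to 31.0), Abcb1a by 8.20-fold (6.92 to 9.73), Cldn5 by 5.44-fold (5.17 to 5.72) and Slc2a1 by 3.29-fold (3.09 to 3.50). Slco1c1 was at least 26.7-fold lower. Abcg2 was 1.16-fold lower (1.05 to 1.27), within 2-fold, and Ocln had 0 reads in both libraries. The median log2 ratio of all genes was 0.48 and moved by -0.71 with median-of-ratios factors and by -1.40 with the deposited RPKM. With these scalings 46.0% and 39.0% of the genes past 2-fold were higher, against 57.1%, and the members past 2-fold lower numbered 7 and 8. Relative to the median endothelial ratio they numbered 5. Relative to the summed endothelial markers they numbered 4, where Slc2a1 (log2 ratio -0.89), Tjp1 (-0.49) and Slc7a5 (-0.45) lay within 2-fold and Abcg2, at 0.60, changed sign within 2-fold.

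Ratios between genes within a library do not depend on the scaling between libraries, and the pairs given here were chosen after their values were seen. GLUT1 and claudin-5 transcripts stood in a like proportion in ZOL and ZOL+Ang2, with overlapping intervals: Slc2a1 per Cldn5, in RPKM, was 0.341 (95% counting interval 0.334 to 0.348) and 0.347 (0.328 to 0.366), against 0.209 (0.197 to 0.222) in PBS. Slc7a5 per Slc2a1 was 0.0454, 0.0530 and 0.0594 in PBS, ZOL and ZOL+Ang2, with overlap between neighbouring intervals. Set against Plvap, which encodes the diaphragm protein of fenestrae and marks leaky endothelium, Cldn5 stepped down from 10.1 (9.17 to 11.2) in PBS to 2.49 (2.43 to 2.55) in ZOL and 1.07 (1.02 to 1.12) in ZOL+Ang2. The direction depends on the partner. From PBS to ZOL, Cav1 (211 to 27.5 RPKM) and Cavin2 (281 to 27.7) fell by a larger ratio than Cldn5. Cavin1 (244 to 132) and Ehd2 (16.7 to 8.42) fell by a smaller ratio, and Cav2 (0.803 to 6.89) rose. Mfsd2a per Cldn5 was 0.0357, 0.0227 and 0.00903 in PBS, ZOL and ZOL+Ang2, and none of their intervals overlap. Abcg2 per Abcb1a was 0.938 (0.820 to 1.07) under PBS, 0.857 (0.816 to 0.899) under ZOL and 6.64 (5.77 to 7.67) under ZOL+Ang2. BCRP transcripts thus lay above those of Abcb1a, per length, in ZOL+Ang2 and below them in ZOL, and the PBS interval does not settle their order. The P-glycoprotein pair switched order, with Abcb1b per Abcb1a at 0.00546 (0.00112 to 0.0161), 0.132 (0.120 to 0.144) and 3.93 (3.40 to 4.56).

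**Figure D3:**
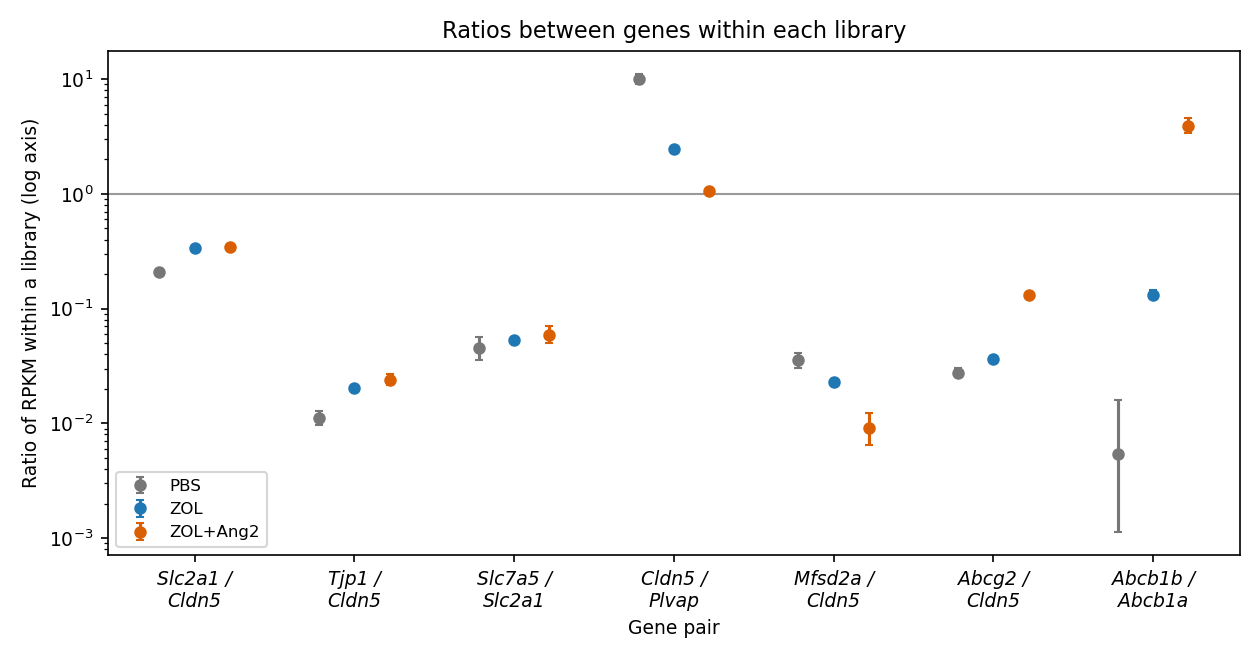
Ratio of RPKM between 2 genes of the same library (log axis) for 7 gene pairs in PBS, ZOL and ZOL+Ang2, with 95% counting intervals (exact binomial). Slc2a1 per Cldn5 is 0.341 in ZOL and 0.347 in ZOL+Ang2, whereas Abcg2 per Cldn5 goes from 0.0361 to 0.130 and Abcb1b per Abcb1a from 0.132 to 3.93.

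Of 15 other tight junction genes compared, 6 were past 2-fold lower in ZOL+Ang2 than in ZOL, 2 higher and 7 within, with a median log2 ratio of -0.76. Over all genes, 24.8% were lower and 16.2% higher. Ildr2, an angulin, was 12.3-fold lower (95% counting interval 9.03 to 17.2). Jam2, an endothelial junction adhesion molecule, was 5.54-fold lower (4.74 to 6.51), Esam, an adhesion molecule of endothelial tight junctions, 2.47-fold lower (2.35 to 2.59), and Lsr, the angulin at corners where 3 cells meet, 3.53-fold lower (3.12 to 4.00). Cldn11, a claudin of arachnoid barrier cells, was 2.38-fold higher (2.08 to 2.73). F11r, which encodes JAM-A, stood at 111 and 169 CPM, and the epithelial claudin Cldn3 at 41.6 and 62.9 CPM, both within 2-fold. Of the adherens junction genes all 8 compared lay within 2-fold in this comparison, among them Cdh5, the VE-cadherin of endothelium (56.4 and 36.8 CPM), Ctnnb1 (385 and 383) and Ctnna1 (721 and 675). In ZOL against PBS, tight junction genes split into 6 higher, 4 lower and 5 within, and adherens junction genes into 3 higher, 1 lower and 4 within. The shares over all genes were then 49.2% higher and 29.4% lower.

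Carriers that share tasks with the members were also split. In ZOL+Ang2 against ZOL, 3 of 10 compared were lower, 1 was higher and 6 lay within 2-fold, beside 24.8% lower and 16.2% higher of all genes. The lower genes were Slc38a5, a glutamine carrier (15.7-fold, 95% counting interval 12.9 to 19.1), Slc22a8, the organic anion carrier OAT3 (67.8-fold, 36.8 to 142), and Slco2b1, a further organic anion carrier, at 59.9 CPM against 0 reads. Slc38a3, another glutamine carrier, was 2.59-fold higher (2.23 to 3.01). Slc38a5 and Slc22a8 passed the level filter only through ZOL, and Slc38a3 only through ZOL+Ang2, which favours the direction of each. Slc3a2 encodes CD98, the heavy chain that LAT1 needs. It stood at 577, 791 and 536 CPM from PBS through ZOL to ZOL+Ang2 and was 1.48-fold lower in ZOL+Ang2 than in ZOL (1.43 to 1.53), so Slc7a5 per Slc3a2 went from 0.0655 (0.0611 to 0.0702) to 0.0312 (0.0264 to 0.0366). Slco1a4, a close relative of Slco1c1, stood at 261, 279 and 196 CPM and kept reads in each library, unlike Slco1c1. Slc16a1, the monocarboxylate carrier MCT1, had 4 reads in PBS and 393 and 280 CPM in the other libraries.

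Among other efflux pumps, 1 of 5 compared was higher in ZOL+Ang2 than in ZOL and 2 were lower. Abcb1b was 3.93-fold higher (95% counting interval 3.55 to 4.35), while Abcc1 was 75.6-fold lower (42.1 to 152) and Abcc5 14.5-fold lower (9.31 to 24.0). Abcc4, which pumps organic anions and nucleotides, stood at 0 reads in PBS and at 159 and 125 CPM. Of 7 receptors of vesicle transport, 2 were lower, the transferrin receptor Tfrc (111-fold, 53.9 to 277) and the immunoglobulin receptor Fcgrt (3.99-fold, 3.63 to 4.39), and 3 were higher, led by Lepr (7.79-fold, 5.82 to 10.6) and Lrp8 (2.32-fold, 2.02 to 2.67). Beside these counts, 24.8% of all genes were lower and 16.2% higher. Abcc5 and Tfrc passed the level filter only through ZOL, and Lrp8 only through ZOL+Ang2, which favours the direction of each.

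Genes of caveolae and fenestrae serve passage through the cell rather than its restriction, and 4 of 6 were past 2-fold lower in ZOL+Ang2 than in ZOL and none higher. Cavin2 was 37.4-fold lower (95% counting interval 26.1 to 55.5) and Cav1, the coat protein of caveolae, 3.13-fold lower (2.81 to 3.49). Plvap was 1.51-fold lower (1.46 to 1.57) and lay within 2-fold. In ZOL against PBS Plvap was 2.64-fold higher (2.40 to 2.91) and Cav1 3.06-fold lower (2.82 to 3.32). The Wnt and beta-catenin list, which holds the pathway that installs the brain endothelial barrier, was mixed in ZOL+Ang2 against ZOL. Of 13 compared 5 were lower, 2 higher and 6 within. For both lists, the shares over all genes were 24.8% lower and 16.2% higher. Apcdd1, a Wnt target of barrier endothelium, stood at 63.3 CPM against 0 reads, Foxf2 at 9.68 CPM against 0 reads, and Adgra2, the Wnt7 co-receptor GPR124, was 17.7-fold higher (13.0 to 24.6). Of the lower genes, Apcdd1, Lrp5 and Lrp6 passed the level filter only through ZOL. Both higher genes, Adgra2 and Nkd1, passed it only through ZOL+Ang2. This favours the direction of each. Lef1 stood at 0 reads in PBS and at 21.4 and 3.99 CPM, under the level filter. Sox17, an arterial factor, stood at 250, 32.04 and 61.0 CPM.

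**Figure D4:**
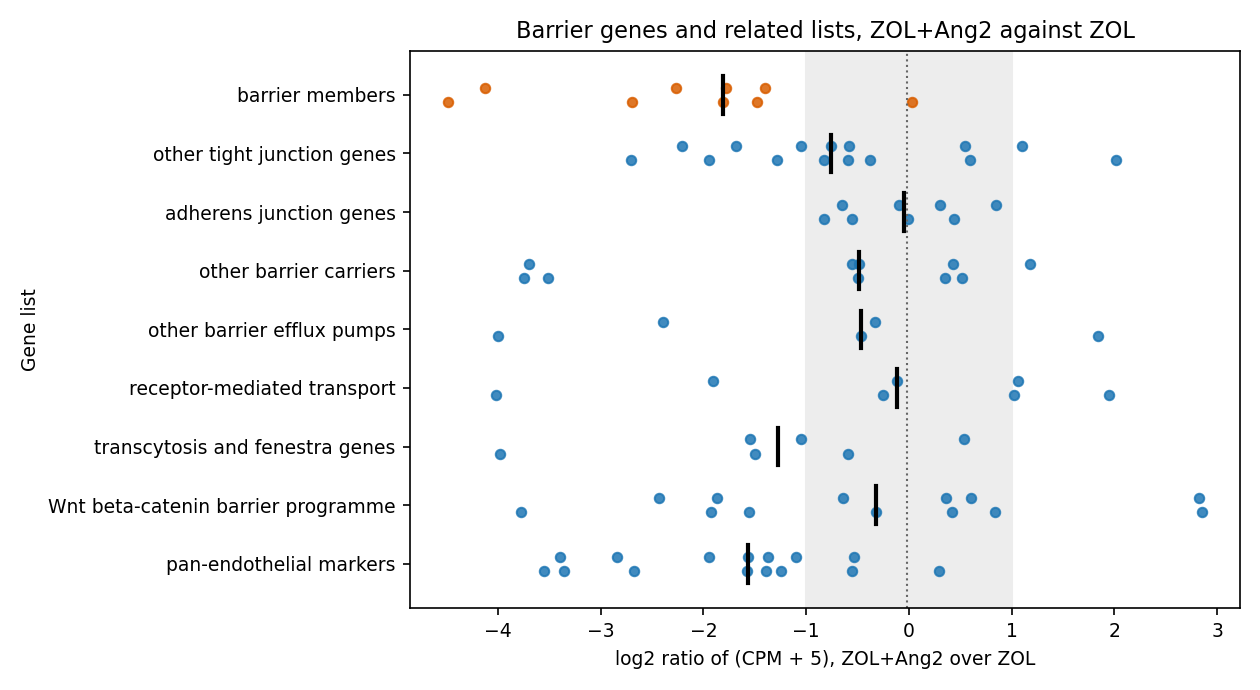
log2 ratio of CPM plus 5 for ZOL+Ang2 against ZOL, 1 point per gene compared, in the 9 barrier genes and 8 related lists, with black bars for medians, grey for the range within 2-fold and a dotted line for the median of all genes (-0.02). The barrier genes (median -1.81) and the pan-endothelial markers (-1.56) lie furthest to the left of these lists, and the adherens junction genes (-0.05) lie near it.

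Slc2a1 and Slc7a5 are also known as targets of the hypoxia and amino acid responses. Of 7 hypoxia and glycolysis genes compared, 5 were higher in ZOL than in PBS and 1 was lower, beside 49.2% higher of all genes. The log2 ratio of Slc2a1 in that comparison ranged from -1.24 to 0.08 over the 7 scalings. In ZOL+Ang2 against ZOL 1 of these 7 genes was higher, 1 was lower and 5 lay within 2-fold, beside 16.2% higher and 24.8% lower of all genes. The higher gene, Slc16a3, passed the level filter only through ZOL+Ang2, which favours its direction. Eno1 stood at 1845 and 1398 CPM and Ldha at 1244 and 846. Of 8 amino acid response genes, 4 were lower in ZOL+Ang2 than in ZOL and 2 higher, beside 24.8% and 16.2% of all genes. Sesn2, 1 of the 2 higher genes of this response, passed the level filter only through ZOL+Ang2, which favours its direction. Phgdh, the first enzyme of serine synthesis, stood at 489 and 45.8 CPM, and Atf4, the factor of that response, at 184 and 55.6. All 10 proliferation genes compared were past 2-fold higher in ZOL than in PBS, beside 49.2% of all genes. In ZOL+Ang2 against ZOL 3 of them were lower, 1 was higher and 6 lay within 2-fold, beside 24.8% lower and 16.2% higher of all genes. The 3 lower genes, Ccnb1, Ccna2 and Bub1, passed the level filter only through ZOL. This favours their higher ZOL values in both comparisons.

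The arachnoid barrier uses some of the same genes. Of its 9 markers, 4 had 0 reads under PBS, 5 under ZOL and 3 under ZOL+Ang2, and their sum was 285, 130 and 206 CPM. Of 4 compared in ZOL+Ang2 against ZOL, 3 were past 2-fold higher and none lower, with a median log2 ratio of 1.21, beside 16.2% higher of all genes. Dpp4 stood at 0 reads in ZOL and 59.5 CPM in ZOL+Ang2, Crym at 0 reads and 7.53 CPM, and Cldn11 was the 2.38-fold higher gene named above. Dpp4 passed the level filter through ZOL+Ang2 alone, so its higher value there is built into the filter. Crym, at 28.5 CPM in PBS, also needed its ZOL+Ang2 reads to pass, which favours its higher value there. Slc6a13 and Wnt6 had 0 reads in each library, and Slc47a1 had 5, 2 and 1 reads. Cdh1, an adhesion protein that epithelia share with arachnoid barrier cells, held 165, 84.8 and 81.3 CPM. Slco1c1 is also active in astrocytes and choroid plexus, and markers of these summed to 11.3, 30.8 and 93.8 CPM. Of the 7 markers, 3 had 0 reads under PBS, 3 under ZOL and 4 under ZOL+Ang2. In ZOL, where Slco1c1 was highest, the transthyretin gene Ttr had 152 reads, Folr1 145, Aldoc 161 and Slc1a2 25, while Aqp4, Gfap and Kl had 0. Their part in the Slco1c1 values was not tested.

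Over 3 libraries many genes share the pattern of any one gene. Of 6764 named protein-coding genes averaging 20 CPM or more, 48 lay within 0.25 log2 units of Cldn5 in each library after centring, and 52 lay within that distance of Slc2a1. The closest to Cldn5 were Mef2a, Pmm2 and Klhl15, with largest differences of 0.05, 0.05 and 0.06 log2 units. The closest to Slc2a1 were Nav2, Sumo3 and Ubash3b, at 0.03, 0.05 and 0.07.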

How the data were processed

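RNA of 3 pools of selected mouse dural cells, 1 library per treatment, was analysed, with groups taken from the treatment label. Per the labels' protocols, total RNA was amplified at full length with a single-cell kit and no molecular identifiers are named. The authors deposited 1 RPKM value per gene, and fastp, HISAT2 2.2.1 and featureCounts 2.0.6 with mm10 are named in the submitters' processing notes, with no roles. The sources used here give neither the annotation and library total nor how mates were counted.

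Each RPKM times the gene's exon length (GENCODE M21) was divided by the value of 1 read, found from the steps between low values. With a tolerance of 0.01, 96.9%, 96.4% and 96.2% of values above 0 came out whole in PBS, ZOL and ZOL+Ang2. Of 54532 genes, 37 had no exon length and were left out. The reads are 1.496, 0.701 and 0.785 times the totals that the steps imply, so whether they are the authors' counts is unsure. By design, recovered reads were to be used if recovery was possible, and RPKM scaled to a common total otherwise. Recovered reads were used. Even numbers of reads were more common than odd ones in PBS (61.0% of genes with low reads), so both mates of a pair may have been counted, and counting intervals would then be too narrow.

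CPM came from these reads and TMM factors (1.11, 0.946 and 0.953; trims of 30% and 5%). Ratios of named genes are of CPM, with exact 95% binomial intervals. Counts of genes past 2-fold use log2 of CPM plus 5, which understates differences of low genes, and a mean of at least 10 CPM (10942 genes). Against 0 reads a ratio is a bound from 3 reads in that library (1.61, 0.191 and 0.342 CPM). The steps were run on simulated reads drawn from a shared profile and written with the same exon lengths and RPKM steps. That run therefore cannot show whether the recovered reads are the authors' counts or whether the scaling suits these libraries. Python 3.11.15, numpy 2.4.6, pandas 2.3.3, scipy 1.17.1 and matplotlib 3.10.9 were used.

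The members and the 20 other lists were chosen with earlier results of these data known. Named genes are the 9 members, from each list up to 2 highest, 2 lowest and 2 most abundant genes, fixed partners or near copies (Abcb1b, Slc3a2, Slco1a4, Plvap, Cav1, Lsr, Esam) and the 3 genes of most similar pattern to each of the 2 highest members. A further gene under this rule is not reported here. Further examples were picked with their values in view. Of the lists, 3 symbols with 2 identifiers each were not used. Mural markers summed to 10.8, 878 and 374 CPM and lymphocyte markers to 288, 0.828 and 0. Alternatives changed the scaling, depth, filter, prior and reference.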

Additional observations from a re-analysis of the deposited data

How the results depend on the processing

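With 1 library per group, no library could be left out and no spread between mice was measured. No paired analysis was possible because each group holds 1 library. In ZOL against PBS, the members past 2-fold lower numbered 1 at the main setting, 3 with median-of-ratios factors, 6 with the deposited RPKM unscaled, 2 with libraries thinned to 1675532 reads, 2 relative to the summed endothelial markers, 4 relative to the median of all genes, and 0 with a prior of 20 CPM. A mean of at least 50 CPM left 5 members, of which 0 were higher (2 at the main setting) and 0 lower in ZOL against PBS, and 4 were lower in each of the other comparisons. In ZOL+Ang2 against ZOL, 8 members were lower and 0 higher, 4 lower and 1 higher relative to the summed endothelial markers, and 3 lower and 1 higher relative to the median endothelial ratio, under which Tjp1 (log2 0.084) and Slc7a5 (0.165) changed sign by construction of the reference. In ZOL+Ang2 against PBS, 7 were lower, and 4 relative to the summed endothelial markers. The other 47 counts under alternatives lay within 1.5 times the main count. Of the members' single log2 ratios under alternatives, 113 stayed or moved by no more than the distance from the middle to the end of their counting interval. Another 152 moved by more, or moved at all where the ratio has no interval because a library had 0 reads. The 2 named changed sign after being past 2-fold. The references to the median endothelial ratio and to the median of all genes, and the scaling without PBS, were chosen after seeing the data. PBS depth limits Slco1c1 (17 reads) and Slc7a5 (82 reads) most among members with reads there.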
